A study of Mus musculus with 3 samples.

Results

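Toll-like receptors are germline-encoded sensors of microbial molecules and of nucleic acids, and this account describes 8 of them other than Tlr4, namely Tlr1, Tlr2, Tlr3, Tlr5, Tlr7, Tlr8, Tlr9 and Tlr13, together with the lipopolysaccharide co-receptors Ly96 (MD-2) and Cd14. The 10 genes were taken by symbol from the 55357 genes of the count matrices, and each matched exactly 1 row. The rule used no measured value, though earlier results of these data were known when the genes were chosen. Single-cell RNA sequencing of mouse liver gave 3 libraries, 1 per condition, from wild-type male C57BL/6 mice that were 8 weeks old at the start. The CON library came from mice without treatment, the HFD library from mice fed for 4 months on a diet that drew 60% of its kilocalories from fat, called the MASH group in the submitters' design, and the CCL4 library from mice kept on chow for 3 months and then injected intraperitoneally with 0.1 mL of 10% carbon tetrachloride, a toxin of pericentral hepatocytes, 2 times per week over 4 weeks. Cells of 2 mice were pooled in each library, with perfused hepatocytes and nonparenchymal cells mixed 1:1, and the libraries were made with the 10x Chromium 3′ kit, version 3.1. The control mice were untreated and are not described as having received an injection of vehicle.

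At the cell surface TLR2 pairs with TLR1 or TLR6 to bind bacterial lipopeptides and TLR5 binds flagellin, while TLR3, TLR7, TLR8, TLR9 and TLR13 sit in endosomes and read double-stranded RNA, single-stranded RNA, DNA with CpG motifs and bacterial ribosomal RNA. MD-2, the product of Ly96, is the subunit of the TLR4 complex that holds lipopolysaccharide, and CD14 hands lipopolysaccharide and lipopeptides to these receptors. In liver, portal blood brings microbial products to Kupffer cells, sinusoidal endothelium and hepatocytes.

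The libraries held 11245, 12984 and 12761 cell barcodes in the order CON, HFD and CCL4, with 49613255, 34985786 and 34061186 unique molecular identifiers (UMIs, 1 per captured RNA molecule) and medians of 2939, 2336 and 2173 UMIs per barcode. Of 36990 barcodes, 36945 were kept and clustered into 39 clusters, of which 34 were named after 16 cell classes from marker lists; a class is called hepatocyte-like and so on for this reason. Cells without a name made up 11.6% of CON, 3.68% of HFD and 6.9% of CCL4. Between 36 and 52 barcodes were shared by each pair of libraries and 0 by all 3. Levels are UMIs per 1000000 UMIs of the class (CPM) with an exact Poisson 95% interval, and shares of cells with a UMI have an exact Clopper-Pearson interval. With 1 library per condition no test was possible and no p-value is given; every interval covers counting error alone, so a ratio between libraries compares these libraries and not the conditions.

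Hepatocyte-like cells numbered 4962, 6394 and 7045 and fell into clusters that were almost each of 1 library, led by Mt1, Saa2 and Saa3 or by Il1r1 and Steap4 in CON, by Fabp5, by Foxq1 or by Cyp1a2 and Glul in HFD, and by Hamp2 or by G6pc in CCL4. Free RNA was abundant. The 10 hepatocyte markers were measured in T cell-like cells at a median of 0.252 times their level in hepatocyte-like cells in CON (0.196 to 0.505 over markers), 0.718 times in HFD (0.602 to 0.845) and 0.751 times in CCL4 (0.411 to 0.939). For Tlr2, Cd14, Ly96, Tlr3, Tlr5 and Tlr7, the level in T cell-like cells is therefore given as the background of its library. In HFD and CCL4 this comparison is weak, since even the hepatocyte markers were not far above their T cell-like level. A level not above background there does not show absence from hepatocyte-like cells. Like the hepatocyte-like cells, the T cell-like and B cell-like cells of each library lay mostly in clusters of their own.

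**Figure D1:**
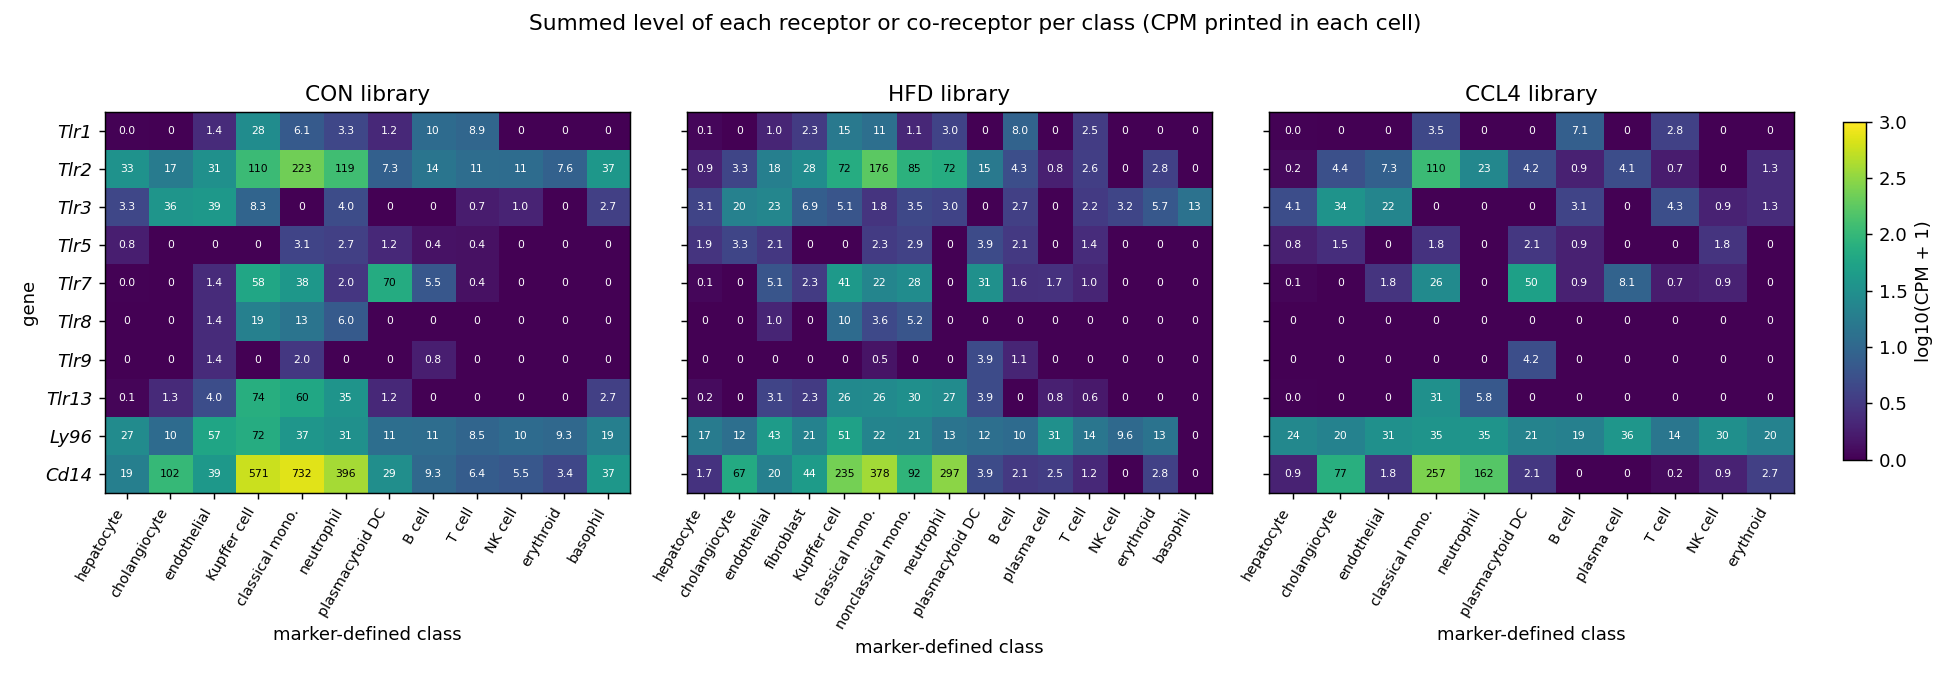
Level of each of the 10 genes (rows) in each marker-defined class of at least 30 cells (columns) in the CON, HFD and CCL4 libraries, in CPM, with the value printed in each cell and colour on a log10(CPM + 1) scale. Tlr2 and Cd14 were highest in myeloid-like columns, Tlr3 in cholangiocyte-like and endothelial cell-like columns, Tlr7 in plasmacytoid dendritic cell-like and Kupffer cell-like columns of CON, and Tlr9 had at most 2 UMIs in any class.

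Myeloid-like cells, that is neutrophil-, classical monocyte-, nonclassical monocyte- and Kupffer cell-like cells pooled, were compared first with hepatocyte-like cells of the same library. By the 2-fold rule, with at least 20 UMIs over the pair, Tlr1, Tlr2, Tlr5, Tlr7, Tlr8, Tlr13 and Cd14 were higher in myeloid-like cells of CON, Tlr1, Tlr2, Tlr7, Tlr13 and Cd14 in HFD, and Tlr2, Tlr7, Tlr13 and Cd14 in CCL4, where 33.6%, 27.6% and 21.8% of all genes tested were higher. Tlr1, Tlr7, Tlr8 and Tlr13 had between 0 and 4 UMIs in hepatocyte-like cells. Where listed, they reached the limit through the myeloid-like side alone, as did Tlr2 in HFD and CCL4 and Cd14 in CCL4. The exception was Tlr7 in CCL4, which reached it with 18 myeloid-like and 2 hepatocyte-like UMIs. The place of all of these in the lists was fixed by the limit and supports nothing. In CON, the members with more UMIs on the hepatocyte-like side were Tlr2 (443 myeloid-like and 912 hepatocyte-like UMIs), Tlr5 (7 and 22), Tlr3 (9 and 92) and Ly96 (109 and 745), and Cd14 had 1534 and 517. Ly96 did not reach 2-fold in any of the 3 libraries. Tlr3 was not higher by 2-fold in myeloid-like cells of any library. In CCL4 it stood at 1.19 CPM (1 UMI, 0.0301 to 6.61) against 4.1 CPM (3.27 to 5.07), so a difference beyond counting error was not detectable there.

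Among the members tested, Tlr2 differed most between libraries in hepatocyte-like cells. It had 912 UMIs in 702 of the CON cells, 16 UMIs in 15 of the HFD cells and 4 UMIs in 4 of the CCL4 cells. These gave 33.1 CPM (31 to 35.4) in CON, 0.929 CPM (0.531 to 1.51) in HFD and 0.195 CPM (0.0531 to 0.499) in CCL4, with shares of positive cells of 14.1%, 0.235% and 0.0568%. The 3 intervals did not overlap. The CPM was 35.7-fold (21.8 to 62.7) lower in HFD than in CON and 170-fold (66.1 to 625) lower in CCL4. With each cell thinned to 1000 UMIs, the shares were 2.76%, 0.0789% and 0.0157%, in the same order.

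Hepatocyte-like cells held 51.1% of all Tlr2 UMIs in the CON library and were 44.3% of its cells. Their level of 33.1 CPM was no higher than the 36 CPM (34.4 to 37.7) of all CON cells together. In T cell-like cells, Tlr2 stood at 10.7 CPM in CON (30 UMIs, 2.52% of cells), 2.65 CPM in HFD (13 UMIs, 0.576%) and 0.71 CPM in CCL4 (3 UMIs, 0.154%). Hepatocyte-like over T cell-like cells, the ratio was 3.11 (2.16 to 4.64) in CON, 0.351 (0.158 to 0.792) in HFD and 0.275 (0.0465 to 1.87) in CCL4. Tlr2 in hepatocyte-like cells thus lay detectably above the background of its library in CON alone. The HFD value, below that of T cell-like cells, is read as background. In CCL4 the interval is too wide for the comparison to decide. T cell-like cells of CON had Tlr2 at 0.322 times (0.216 to 0.462) the hepatocyte-like level, within the range of the hepatocyte markers given above.

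Myeloid RNA in hepatocyte-like cells was looked at through the myeloid marker lists. In CON, 9 of 9 classical monocyte markers were detected there with a summed 1034 CPM, of which Fn1, which hepatocytes also make, was nearly all, leaving 7.7 CPM without it, against 6.79 CPM in HFD and 4.24 CPM in CCL4. The 9 neutrophil markers summed to 127 CPM in CON, 55.7 CPM in HFD and 15.5 CPM in CCL4 once G0s2, likewise a hepatocyte gene, was left out. The 10 Kupffer cell markers without Slc40a1 summed to 4.76, 21.1 and 3.95 CPM, with Timd4 at 0 in CON and Marco at 0 in CCL4. Neutrophil marker RNA in hepatocyte-like cells therefore ran in the same order as Tlr2, and its part in the Tlr2 level was not tested. It was not confined to this class. T cell-like cells had 56.9 CPM of these markers in HFD and 15.4 CPM in CCL4 without G0s2. With G0s2 counted, they had 163 CPM in CON, beside 215 CPM in hepatocyte-like cells of CON.

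Within CON, Tlr2 was detected in both hepatocyte-like clusters. The cluster led by Mt1, Saa2 and Saa3 (3416 cells, median mitochondrial share 0.33%) had 16.8 CPM and the cluster led by Il1r1 and Steap4 (1546 cells, 6.14%) had 49.7 CPM, a ratio of 2.96 (2.55 to 3.45). The interval of the Mt1-led cluster (14.7 to 19.1) overlapped those of T cell-like cells of CON, at 10.7 CPM (7.19 to 15.2), and B cell-like cells, at 13.6 CPM (9.49 to 18.9). The leading genes of the 2 clusters include the acute-phase genes Saa1 and Saa2, and Il1r1, the interleukin 1 receptor. Saa1 stood at 17510 CPM in hepatocyte-like cells of CON, 662 CPM in HFD and 192 CPM in CCL4, and Lcn2 at 3065, 21.5 and 39 CPM; these genes were chosen after the clusters had been seen, and their part in the Tlr2 difference was not tested.

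Part of the RefSeq promoter window of Tlr2 on GRCm38.p6 is shown because the level of Tlr2 differed most between libraries. Printed are the 91 bases of the window before the transcript as GENCODE places it, chr3:83841768-83841858 on the minus strand. The RefSeq start lies further downstream. The bases run in the direction of transcription, with overlapping matches to the NF-kappaB motif, which is GGG, any 5 bases and CC, in capitals.

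Tlr2: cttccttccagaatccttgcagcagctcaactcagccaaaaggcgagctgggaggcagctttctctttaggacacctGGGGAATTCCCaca

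The 300-base window around the RefSeq start held 7 matches to this motif, counted on either strand and with overlaps, of which 3 lie in the capitals printed here. The windows of Tlr3 held 3, Tlr5 held 1, and Tlr1, Tlr8, Tlr9 and Tlr13 held 0. The motif occurs in 50.8% of the 32851 RefSeq promoter windows of the same length, so a match is common and says nothing of binding. Windows were found for 7 of the 10 members.

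Myeloid-like classes were the other place of Tlr2. Classical monocyte-like cells had 218, 386 and 63 UMIs, or 223 CPM (194 to 255) in CON, 176 CPM (159 to 195) in HFD and 110 CPM (84.5 to 141) in CCL4, with 56.1%, 37.6% and 23.1% of cells positive. HFD over CON was 0.791 (0.668 to 0.938) and CCL4 over CON 0.493 (0.366 to 0.655). Neutrophil-like cells had 119, 71.7 and 23.2 CPM, with ratios of 0.601 (0.427 to 0.83) and 0.194 (0.0524 to 0.506), the CCL4 value resting on 4 UMIs in 84 cells. CON was highest in both classes. When each library was clustered on its own, the classical monocyte-like ratio of HFD over CON was 1.11, so its direction depends on the clustering.

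In Kupffer cell-like cells, Tlr2 stood at 110, 71.5 and 58.6 CPM in 72, 73 and 24 cells, and nonclassical monocyte-like cells, numerous in HFD alone, had 84.7 CPM there. Endothelial cell-like cells had 31, 18.5 and 7.3 CPM and cholangiocyte-like cells had 16.6, 3.27 and 4.38 CPM. Myeloid-like over hepatocyte-like cells, Tlr2 was 4.59-fold (4.09 to 5.14) higher in CON, 134-fold (81.6 to 235) in HFD and 438-fold (164 to 1652) in CCL4. The myeloid-like level itself was 152, 124 and 85.5 CPM, so the ratio rose while both of its levels were lower. The makeup of this pool differed between libraries, with neutrophil-like cells making up 469 of 784, 283 of 1777 and 84 of 343 cells. The CON ratio was 2.52 at the finer clustering of resolution 2.0, and the HFD ratio 52.7 with hepatocyte-like clusters of at least 2% mitochondrial UMIs alone.

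Cd14, which delivers ligand to the TLR4 complex and to TLR2, had 517, 30 and 19 UMIs in hepatocyte-like cells. Its level was 18.8 CPM (17.2 to 20.5) in CON, 1.74 CPM (1.18 to 2.49) in HFD and 0.926 CPM (0.558 to 1.45) in CCL4, with 6.91%, 0.454% and 0.27% of cells positive. CON was high and did not overlap the others. The level was 10.8-fold (7.46 to 16.1) lower in HFD and 20.3-fold (12.9 to 34) lower in CCL4. Hepatocyte-like over T cell-like cells, Cd14 was 2.94 (1.84 to 5) in CON, 1.42 (0.583 to 4.19) in HFD and 3.91 (0.622 to 163) in CCL4, so that a level above background was detectable in CON alone. In HFD and CCL4 the comparison cannot decide, as hepatocyte markers were themselves not far above their T cell-like level. As with Tlr2, the Il1r1-led cluster of CON was the higher one, at 29.1 CPM against 8.66 CPM, a ratio of 3.36 (2.73 to 4.16). The interval of the lower, Mt1-led cluster (7.18 to 10.3) overlapped that of T cell-like cells of CON, at 6.39 CPM (3.79 to 10.1).

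Tlr2 and Cd14 were found in the same CON hepatocyte-like cells more often than their shares in the pooled class give. Both were detected in 121 cells, where 48.5 would be met if the shares were unrelated. Of cells with Tlr2, 17.2% had Cd14, and of cells without it 5.21%. Both genes were also more often detected in the Il1r1-led cluster (Tlr2 in 31.2% and Cd14 in 15.5% of cells) than in the Mt1-led cluster (6.44% and 3.04%). Pooling these clusters by itself raises the overlap above 48.5. Cells with Tlr2 were also deeper, with a median of 8610 UMIs against 3495. The parts of cluster and depth in this overlap were not tested.

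Classical monocyte-like cells had the highest Cd14 of the immune classes in CON, with 716, 828 and 147 UMIs. The level was 732 CPM (680 to 788) in CON, 378 CPM (353 to 405) in HFD and 257 CPM (217 to 302) in CCL4, and 85.5%, 58.3% and 41.2% of cells had a UMI. No 2 of the intervals overlapped. HFD over CON was 0.516 (0.467 to 0.571) and CCL4 over CON 0.35 (0.291 to 0.419). Kupffer cell-like cells had 571, 235 and 322 CPM, with HFD over CON at 0.412 (0.292 to 0.569). This ratio was 0.13 with each library clustered on its own and 0.15 at resolution 2.0, where the class took in 282 and 256 HFD cells in place of 73. Neutrophil-like cells had 396, 297 and 162 CPM, with ratios of 0.751 (0.636 to 0.883) and 0.41 (0.27 to 0.598). Cd14 was thus highest in CON in each of these classes. The neutrophil-like cells of CON were mostly (338 of 469) in an Asprv1-led cluster of their own, and with at least 1000 genes per cell the HFD ratio was 1.02.

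Cholangiocyte-like cells, the lining of the bile ducts, were a nonmyeloid class with Cd14 well above background in each library. They had 80, 41 and 53 UMIs, or 102 CPM (81.1 to 127) in CON, 67.1 CPM (48.2 to 91.1) in HFD and 77.4 CPM (57.9 to 101) in CCL4, with 33.9%, 18.8% and 18.6% of cells positive. Over T cell-like cells this was 16-fold (9.51 to 28.4), 54.9-fold (23.2 to 158) and 327-fold (56.2 to 13148) higher. Over hepatocyte-like cells it was 5.44-fold, 38.5-fold and 83.5-fold higher. The same cells had 13, 2 and 3 Tlr2 UMIs and 1, 0 and 0 Tlr13 UMIs. Between libraries the class varied less than hepatocyte-like cells did, with HFD over CON at 0.656 (0.439 to 0.968). Endothelial cell-like cells had 39.1, 19.5 and 1.82 CPM of Cd14. The HFD over CON ratio of 0.499 (0.264 to 0.921) in that class turned to 3.1 when the 8% of barcodes with the highest doublet scores were left out, so it is not a stable value.

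**Figure D2:**
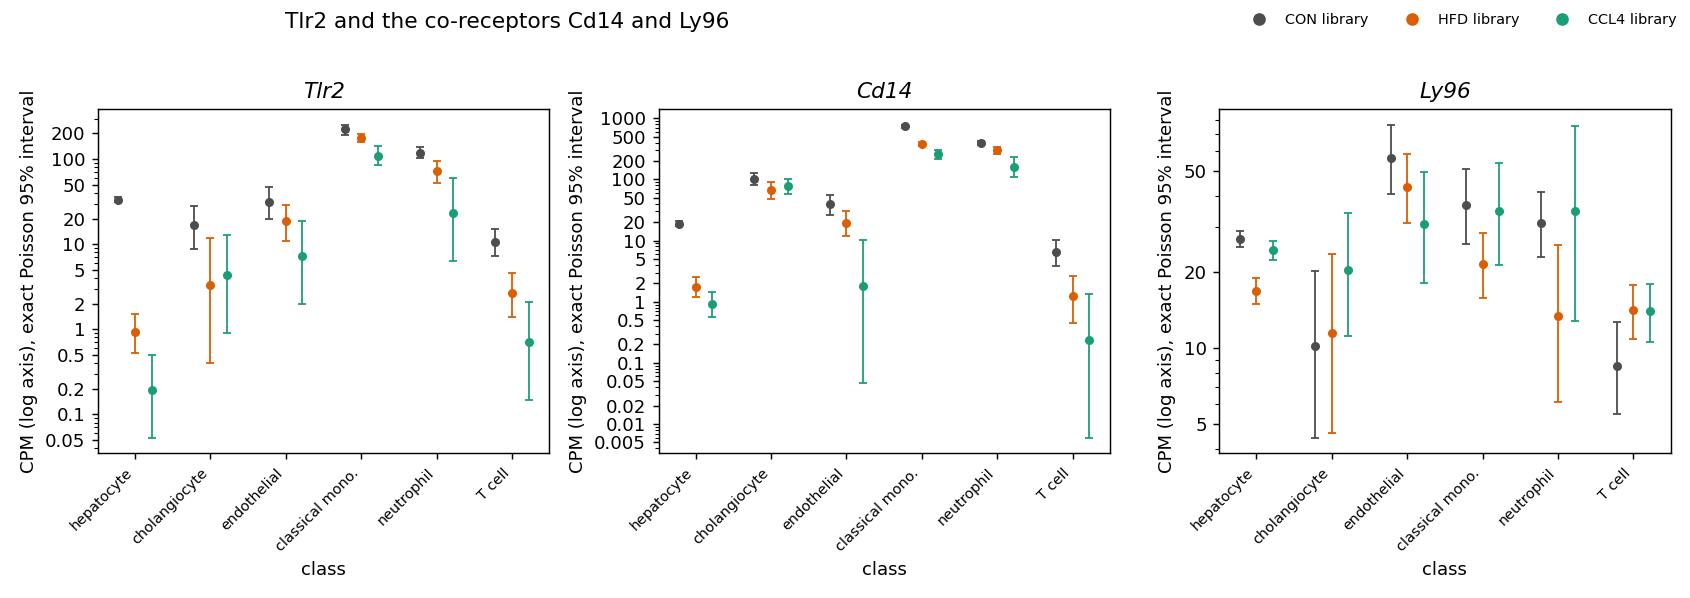
Tlr2, Cd14 and Ly96 by class and library, in CPM on log axes, with points for the CON, HFD and CCL4 libraries and bars for exact Poisson 95% intervals. Tlr2 in hepatocyte-like cells lay at 33.1 CPM in CON and below 1 CPM in the other libraries, Cd14 in cholangiocyte-like cells stayed between 67.1 and 102 CPM, and Ly96 in hepatocyte-like cells between 16.8 and 27.1 CPM.

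Ly96, the lipopolysaccharide-holding subunit, was found at similar levels in several classes. Hepatocyte-like cells had 745, 290 and 500 UMIs, or 27.1 CPM (25.2 to 29.1) in CON, 16.8 CPM (15 to 18.9) in HFD and 24.4 CPM (22.3 to 26.6) in CCL4, with 13.2%, 4.43% and 6.78% of cells positive. HFD was low and CON and CCL4 overlapped, with HFD over CON at 0.622 (0.541 to 0.713) and CCL4 over CON at 0.901 (0.802 to 1.01). Myeloid-like over hepatocyte-like cells, the ratio was 1.38 (1.12 to 1.69), 1.26 (0.999 to 1.59) and 1.46 (0.975 to 2.11). In CON this ratio was below 1, between 0.749 and 0.828, under 5 other ways of filtering or naming the cells, and 2.24 (1.77 to 2.83) with hepatocyte-like clusters of at least 2% mitochondrial UMIs alone. Each of those 5 also brought progenitor cells into the myeloid-like pool, and the part of this in the ratio was not tested.

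Outside CON, Ly96 in T cell-like cells was closer to the hepatocyte-like level. T cell-like cells had 8.52, 14.1 and 14 CPM, so that hepatocyte-like over T cell-like cells gave 3.18 (2.12 to 4.99) in CON, 1.2 (0.918 to 1.58) in HFD and 1.75 (1.33 to 2.33) in CCL4. A hepatocyte-like level above that of T cell-like cells was not detectable in HFD. The lymphoid classes were not alike, with NK cell-like cells at 10.3, 9.64 and 30.3 CPM and B cell-like cells at 10.9, 10.2 and 19.1 CPM. Plasma cell-like cells had 31 CPM in HFD and 36.5 CPM in CCL4, so the background depends on the class taken. How much of the Ly96 in these classes was free RNA was not tested. In CON, the Mt1-led cluster was the higher one for Ly96, at 37.3 CPM against 16.7 CPM in the Il1r1-led cluster, a ratio of 2.23 (1.91 to 2.62) and the opposite of Tlr2 and Cd14. In CCL4, the Hamp2-led cluster exceeded the G6pc-led cluster 1.73-fold (1.44 to 2.08).

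Endothelial cell-like cells had the highest Ly96 of the nonmyeloid classes in CON and HFD, at 56.7, 43.2 and 31 CPM, and over hepatocyte-like cells this was 2.09-fold (1.5 to 2.86), 2.56-fold (1.81 to 3.55) and 1.27-fold (0.735 to 2.06). Kupffer cell-like cells had 71.7, 51 and 58.6 CPM, which did not differ from endothelial cell-like cells beyond counting error in CON (ratio 1.26, 0.744 to 2.11) or HFD (1.18, 0.529 to 2.4). Classical monocyte-like cells had 36.8, 21.5 and 34.9 CPM and neutrophil-like cells 31.3, 13.4 and 34.8 CPM, the HFD library being the lowest in both. The ratio of HFD to CON was 0.583 (0.37 to 0.926) in the former and 0.429 (0.185 to 0.886) in the latter.

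Tlr1, the partner of TLR2 for triacylated lipopeptides, was sparse, with 86, 69 and 37 UMIs in the libraries. Kupffer cell-like cells had 27.6 CPM (13.2 to 50.7) in CON, 15.3 CPM in HFD and 58.6 CPM in CCL4, from 10, 3 and 4 UMIs. B cell-like cells had 26, 15 and 16 UMIs, or 10.1 CPM (6.61 to 14.8), 8.03 CPM (4.5 to 13.3) and 7.1 CPM (4.06 to 11.5), and their intervals overlapped. Classical monocyte-like cells had 6, 25 and 2 UMIs, or 6.14, 11.4 and 3.49 CPM, and in HFD they held 36.2% of the Tlr1 UMIs. T cell-like cells had 8.88 CPM in CON, 2.45 CPM in HFD and 2.84 CPM in CCL4, with ratios to CON of 0.275 (0.126 to 0.569) and 0.32 (0.146 to 0.661). Of the T cell-like cells, 1063 of 1073 in CON were in a cluster led by Lef1 and Il7r, 2077 of 2082 in HFD in one led by Cd3g and Trac, and 1885 of 1948 in CCL4 in one led by Trbc2, so the cluster and the library cannot be told apart. The T cell-like level is not read as background for this gene, and NK cell-like cells had 0 UMIs in all libraries. B cell-like over T cell-like cells, Tlr1 was 1.14 (0.632 to 2.06) in CON, 3.28 (1.44 to 7.69) in HFD and 2.5 (1.11 to 5.79) in CCL4. Hepatocyte-like cells had 1, 2 and 1 UMIs, so Tlr2 of CON hepatocyte-like cells was met there with almost no Tlr1.

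Tlr5, the flagellin receptor, had 35, 67 and 27 UMIs in the libraries. Hepatocyte-like cells had 22, 32 and 17 of them, or 0.799 CPM (0.501 to 1.21) in CON, 1.86 CPM (1.27 to 2.62) in HFD and 0.829 CPM (0.483 to 1.33) in CCL4. HFD over CON was 2.32 (1.31 to 4.2) and CCL4 over CON 1.04 (0.517 to 2.04). The HFD ratio was 1.24 and 1.2 under other clusterings and below 1, at 0.958 and 0.866, under 2 further alternatives, and the libraries are therefore not ranked for it. T cell-like cells had 1, 7 and 0 UMIs. Hepatocyte-like over T cell-like cells, Tlr5 was 2.25 (0.364 to 92.9) in CON and 1.3 (0.565 to 3.5) in HFD.

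Within the HFD library, Tlr5 was uneven among hepatocyte-like clusters. The cluster led by Cyp1a2 and Glul, genes of hepatocytes around the central vein, had 18 of the 32 UMIs at 8.06 CPM (4.78 to 12.7), whereas the Fabp5-led cluster of 5206 cells had 8 UMIs at 0.638 CPM. The ratio was 12.6 (5.23 to 33.6), and to the Foxq1-led cluster it was 3.24 (1.23 to 9.97). The median mitochondrial share was 3.74% in the Cyp1a2-led, 0.456% in the Fabp5-led and 4.56% in the Foxq1-led cluster, and its part was not tested. These comparisons were chosen after the values had been seen.

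Tlr3, the receptor of double-stranded RNA, was highest in cholangiocyte-like and endothelial cell-like cells among the named classes of at least 30 cells. The gene lies at chr8:45395665-45411080 on the minus strand of GRCm38, and the predicted gene Gm45542 overlaps it on the plus strand. Cholangiocyte-like cells had 28, 12 and 23 UMIs, or 35.8 CPM (23.8 to 51.7) in CON, 19.6 CPM (10.2 to 34.3) in HFD and 33.6 CPM (21.3 to 50.4) in CCL4, with 17.4%, 7.27% and 9.77% of cells positive. Endothelial cell-like cells had 29, 22 and 12 UMIs, or 39.1 CPM (26.2 to 56.2), 22.6 CPM (14.2 to 34.2) and 21.9 CPM (11.3 to 38.2), with 17.3%, 6.36% and 6.67% of cells positive. The intervals of the libraries overlapped in both classes. The ratio between the classes was 0.915 (0.525 to 1.59), 0.869 (0.392 to 1.83) and 1.53 (0.732 to 3.38), so they did not differ beyond counting error in any library.

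Hepatocyte-like cells had Tlr3 at 3.34 CPM (2.7 to 4.1) in CON, 3.08 CPM (2.31 to 4.03) in HFD and 4.1 CPM (3.27 to 5.07) in CCL4, from 92, 53 and 84 UMIs. The libraries overlapped, with HFD over CON at 0.921 (0.644 to 1.3) and CCL4 over CON at 1.23 (0.9 to 1.67). T cell-like cells had 0.71, 2.24 and 4.26 CPM, so hepatocyte-like over T cell-like cells gave 4.71 (1.27 to 39.4) in CON, 1.37 (0.709 to 2.91) in HFD and 0.961 (0.573 to 1.7) in CCL4. For the pooled class, a level above background was detectable in CON alone. In HFD and CCL4 the comparison cannot decide. T cell-like cells there held even the hepatocyte markers at medians of 0.718 and 0.751 times the hepatocyte-like level. Within CON, the Mt1-led cluster stood at 0.721 CPM (0.346 to 1.33), near the T cell-like level. Within HFD, the Foxq1-led cluster had 5.39 CPM (2.87 to 9.22), beside 2.71 CPM in the Fabp5-led and 2.69 CPM in the Cyp1a2-led cluster. Cholangiocyte-like cells exceeded hepatocyte-like cells 10.7-fold (6.75 to 16.5), 6.38-fold (3.1 to 12.1) and 8.2-fold (4.93 to 13.1), and endothelial cell-like cells exceeded them 11.7-fold (7.43 to 17.9), 7.35-fold (4.25 to 12.3) and 5.34-fold (2.66 to 9.84).

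In CON, the Il1r1-led hepatocyte-like cluster had 82 of the 92 Tlr3 UMIs, 6.01 CPM against 0.721 CPM in the Mt1-led cluster, a ratio of 8.33 (4.31 to 18). In CCL4, the G6pc-led cluster exceeded the Hamp2-led cluster 3.16-fold (1.8 to 5.85). In each case the cluster with more Tlr3 was the one with less Ly96. It was also the one with the larger median mitochondrial share. That share was 4.65% in the G6pc-led and 0.622% in the Hamp2-led cluster. The part of mitochondrial share and depth in these contrasts was not tested. Tlr3 had 0, 4 and 0 UMIs in classical monocyte-like cells and 0 in plasmacytoid dendritic cell-like cells of all libraries. Conventional dendritic cells had no class of their own here. With at least 1000 genes per cell they formed one, and Tlr3 was then 25.9 CPM (14.2 to 43.5), 6.51 CPM (1.77 to 16.7) and 18.1 CPM (7.29 to 37.4) in 110, 204 and 135 cells.

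**Figure D3:**
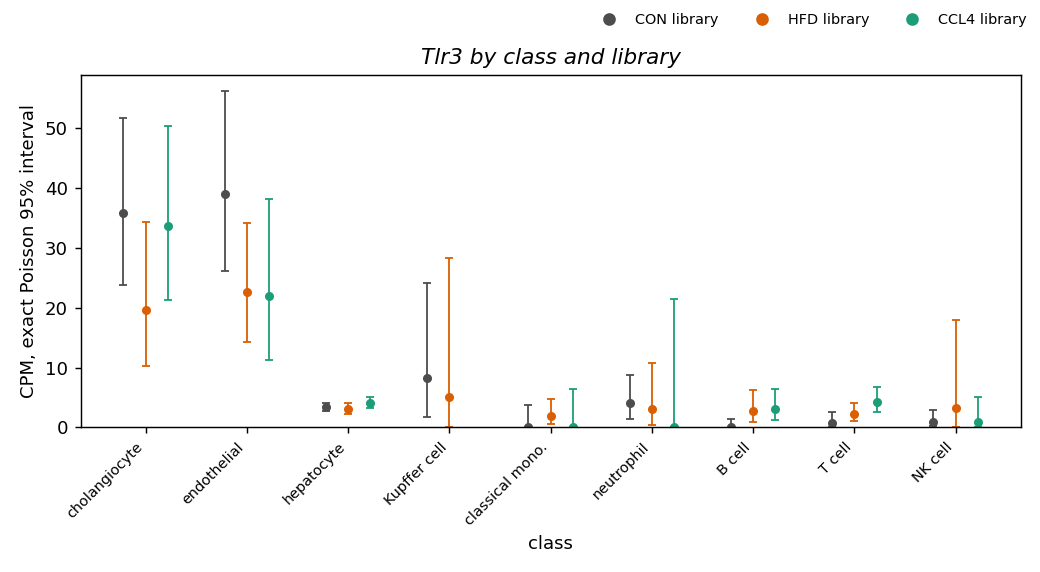
Tlr3 by class and library, in CPM on a linear axis, with points for the CON, HFD and CCL4 libraries and bars for exact Poisson 95% intervals. Cholangiocyte-like and endothelial cell-like cells lay between 19.6 and 39.1 CPM, and hepatocyte-like cells between 3.08 and 4.1 CPM.

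Tlr7, which reads single-stranded RNA, was found in plasmacytoid dendritic cell-like, Kupffer cell-like and monocyte-like cells. Plasmacytoid dendritic cell-like cells, the main makers of type I interferon, had 57, 8 and 24 UMIs, or 69.8 CPM (52.9 to 90.4) in CON, 30.9 CPM (13.3 to 60.9) in HFD and 50.3 CPM (32.2 to 74.8) in CCL4, with 23.1%, 7.22% and 11.2% of cells positive. HFD over CON was 0.443 (0.182 to 0.932) and CCL4 over CON 0.72 (0.427 to 1.18). The CON cells of this class formed a cluster of their own, 189 of 195 cells, and at resolution 0.5 the CCL4 ratio was 1.8. Classical monocyte-like cells had 37.9, 22.4 and 26.2 CPM, with HFD over CON at 0.591 (0.378 to 0.932). Kupffer cell-like cells had 57.9 and 40.8 CPM in CON and HFD and 1 UMI in CCL4. In HFD, classical and nonclassical monocyte-like cells held most of the Tlr7 UMIs, with 49 (35.8%) and 48 (35%), the latter at 27.7 CPM (20.4 to 36.7), beside 8 (5.84%) in plasmacytoid dendritic cell-like cells.

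Plasmacytoid dendritic cell-like over classical monocyte-like cells, Tlr7 was 1.84 (1.2 to 2.87) in CON, 1.38 (0.565 to 2.94) in HFD and 1.92 (0.967 to 3.94) in CCL4, so the order of these neighbours held beyond counting error in CON alone. Over B cell-like cells, the ratio was 12.8 (7.05 to 24.9), 19.2 (4.62 to 113) and 56.6 (14.1 to 494). Neutrophil-like cells had 3, 0 and 0 Tlr7 UMIs, and in CON classical monocyte-like cells exceeded them 18.9-fold (6 to 96). Hepatocyte-like cells had 1, 2 and 2 UMIs, or 0.0363, 0.116 and 0.0975 CPM, below the 0.355, 1.02 and 0.71 CPM of T cell-like cells, which are read as background.

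Tlr13, the receptor of bacterial 23S ribosomal RNA that mice have and humans lack, was found mostly in myeloid-like cells. Myeloid-like cells held 80.1%, 87.4% and 87.5% of its UMIs, at 48.4, 27.6 and 24.9 CPM in pools of different makeup. Classical monocyte-like cells had 59, 57 and 18 UMIs, or 60.4 CPM (45.9 to 77.9) in CON, 26 CPM (19.7 to 33.7) in HFD and 31.4 CPM (18.6 to 49.6) in CCL4, with 22.6%, 7.57% and 7.24% of cells positive. CON was high and did not overlap HFD. HFD over CON was 0.431 (0.294 to 0.632), or 0.682 when each library was clustered on its own, and CCL4 over CON was 0.52 (0.289 to 0.895). Kupffer cell-like cells had 74.4, 25.5 and 29.3 CPM from 27, 5 and 2 UMIs, and neutrophil-like cells 34.7, 26.9 and 5.79 CPM from 52, 18 and 1. Hepatocyte-like cells had 3, 4 and 1 UMIs, B cell-like cells 0, and T cell-like cells 0, 3 and 0.

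Tlr8, a neighbour of Tlr7 on the X chromosome that also reads single-stranded RNA, had 35 UMIs in CON, 22 in HFD and 0 in CCL4. In classical monocyte-like cells it had 13, 8 and 0 UMIs, or 13.3 CPM (7.08 to 22.7) in CON and 3.65 CPM (1.58 to 7.2) in HFD. The ratio of HFD to CON was 0.275 (0.0987 to 0.715). With the 3 UMIs that a count of 0 allows in the class, CCL4 lay 2.54-fold below the CON value. This figure leaves out the interval of CON, so a smaller difference remains possible. In Kupffer cell-like cells it had 7, 2 and 0 UMIs, in neutrophil-like cells 9, 0 and 0, and in nonclassical monocyte-like cells of HFD 9. Hepatocyte-like cells had 0 in all libraries.

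Parts of the RefSeq promoter windows of Tlr13 and Tlr8 on GRCm38.p6 are shown as those of members found mostly in myeloid-like cells. A match to the PU.1 motif GAGGAA, on either strand, is in capitals. For Tlr13 they are the 179 bases before the transcript as GENCODE places it, chrX:106143025-106143203 on the plus strand, and the RefSeq start lies further downstream. For Tlr8 they are the 250 bases before the transcript, chrX:167264330-167264579 on the minus strand.

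Tlr13: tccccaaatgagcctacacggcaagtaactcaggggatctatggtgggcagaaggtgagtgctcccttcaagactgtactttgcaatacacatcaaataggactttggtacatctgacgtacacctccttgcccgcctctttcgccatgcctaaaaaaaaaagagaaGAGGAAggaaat

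Tlr8: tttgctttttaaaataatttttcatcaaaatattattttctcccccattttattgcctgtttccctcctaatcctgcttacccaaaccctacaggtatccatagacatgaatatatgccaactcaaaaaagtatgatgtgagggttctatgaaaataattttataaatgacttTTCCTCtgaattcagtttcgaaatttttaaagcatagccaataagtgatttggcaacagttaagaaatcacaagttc

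This motif occurs in 28.3% of the RefSeq windows of the same length. It was matched 1 time each for Tlr13 and Tlr8, 2 times for Tlr9, 1 time in 1 of the 2 windows of Tlr1, and 0 times for Tlr2, Tlr3 and Tlr5, and a match is a description of letters.

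Tlr9, the receptor of CpG DNA, had 6, 4 and 3 UMIs in the libraries. B cell-like cells had 2, 2 and 0 of them, classical monocyte-like cells 2, 1 and 0, and plasmacytoid dendritic cell-like cells 0, 1 and 2. Its levels were not detectable beyond these counts, and no difference between classes or libraries could be read.

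**Figure D4:**
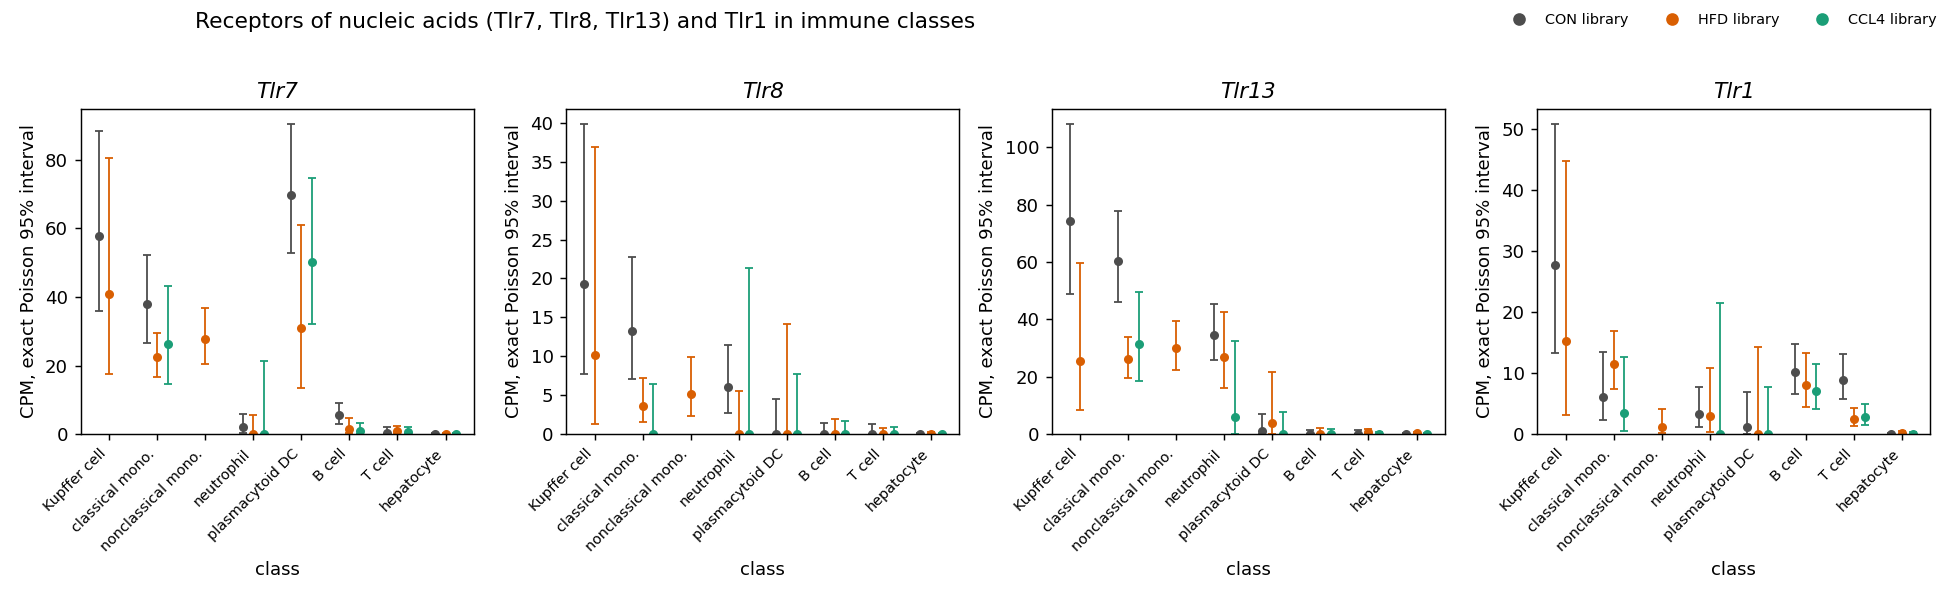
Tlr7, Tlr8, Tlr13 and Tlr1 in immune classes and hepatocyte-like cells by library, in CPM on linear axes, with points for the CON, HFD and CCL4 libraries and bars for exact Poisson 95% intervals. Tlr7 in plasmacytoid dendritic cell-like cells ran from 30.9 to 69.8 CPM, Tlr13 in classical monocyte-like cells from 26 to 60.4 CPM, and hepatocyte-like cells lay near 0 for all of these genes.

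Counted by the 2-fold rule with at least 20 UMIs over both libraries, members in hepatocyte-like cells were lower in HFD than in CON for 2 of 5 (Tlr2 and Cd14) and higher for 1 of 5 (Tlr5), where all genes gave 8.53% lower and 8.63% higher. In CCL4 the same 2 of 5 were lower and 0 higher, where all genes gave 9.01% lower and 11.2% higher. Tlr2 and Cd14 reached the UMI limit in CCL4 through CON alone, and Tlr2 did in HFD, so these counts are a description. In classical monocyte-like cells 2 of 7 (Tlr8 and Tlr13) were lower in HFD and 0 higher, where all genes gave 9.36% lower and 12% higher. In CCL4, 2 of 5 (Tlr2 and Cd14) were lower and 0 higher, beside 18.4% and 10.2% of all genes. None of the members tested was higher by this rule in either library in classical monocyte-like cells.

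In neutrophil-like cells, 1 of 4 members (Ly96) was lower in HFD, beside 19.2% of all genes, and 3 of 4 (Tlr2, Tlr13 and Cd14) were lower in CCL4, beside 26.4%. In endothelial cell-like cells, 1 of 4 (Cd14) was lower in HFD, beside 15.8%, and 2 of 4 (Tlr2 and Cd14) in CCL4, beside 36.6%, a background so high that the count is no result about the members. In neutrophil-like cells, Ly96 of HFD (47 UMIs in CON and 9) and Tlr2 (179 and 4) and Tlr13 (52 and 1) of CCL4 reached the UMI limit through CON alone. So did endothelial Cd14 (29 UMIs in CON, 19 in HFD and 1 in CCL4) and Tlr2 of CCL4 (23 and 4). These counts are therefore a description. In cholangiocyte-like cells, 0 of 2 were lower in HFD, beside 10.8%, and 0 of 3 in CCL4, beside 21% of all genes. Members higher by 2-fold numbered 0 in these classes, where all genes gave 7.17% and 9.31% for HFD and CCL4 in neutrophil-like cells, 11.5% and 12.8% in endothelial cell-like cells, and 7.3% and 8.11% in cholangiocyte-like cells.

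The 41 other genes of the pathway were counted by the same rule. As among the members, a gene could reach the UMI limit through 1 side alone. Irak3 did so through CON in hepatocyte-like cells, so these counts are a description. The levels below are not set against the T cell-like background. In hepatocyte-like cells, 12 of 35 tested were lower in HFD than in CON and 2 higher, and 10 of 35 were lower in CCL4 and 2 higher, with a median log2 ratio of −0.38 in each, beside 0.02 and 0.04 for all genes tested. Of all genes, as given above, 8.53% and 9.01% were lower and 8.63% and 11.2% higher. Lbp, the serum protein that passes lipopolysaccharide to CD14, stood at 158 CPM in CON, 38.7 CPM in HFD and 57.6 CPM in CCL4. The adaptor gene Myd88 had 17.3, 5.34 and 5.85 CPM, and the transcription factor gene Nfkb1 73.7, 13.2 and 16.9 CPM. The inhibitor genes Nfkbia (119, 55.7 and 49.3 CPM), Socs1 (16.9, 1.16 and 1.76 CPM) and Irak3 (5.05, 0.639 and 0.195 CPM) were lower in the same libraries. Higher by 2-fold were Cd36, a scavenger receptor that works with TLR2, in both libraries, at 38.7 CPM in CON, 104 CPM in HFD and 120 CPM in CCL4, Tlr12 in HFD (0.981, 2.38 and 1.07 CPM) and the endolysosomal transporter gene Slc15a4 in CCL4 (9.7, 13.1 and 24.9 CPM). Tlr4 itself had 3, 3 and 1 UMIs in hepatocyte-like cells, and Tlr6 5, 1 and 2.

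In classical monocyte-like cells, 5 of 37 pathway genes were lower in HFD (Slc15a4, Ly86, Itgam, Ticam2 and Irak2), beside 9.36% of all genes, and 2 higher (Cd36 and Irf3), beside 12%. In CCL4, 7 of 35 were lower there, among them Tlr4, Traf6 and Nfkbia, beside 18.4%, and 1 higher (Cd36), beside 10.2%. In neutrophil-like cells, 12 of 32 were lower in HFD and 16 of 29 in CCL4, beside 19.2% and 26.4% of all genes, and in endothelial cell-like cells 8 of 32 and 14 of 28, beside 15.8% and 36.6%. In cholangiocyte-like cells 3 of 26 were lower in HFD and 8 of 25 in CCL4, beside 10.8% and 21%. Myeloid-like over hepatocyte-like cells, 22 of 39 pathway genes were at least 2-fold higher in CON, 26 of 39 in HFD and 22 of 35 in CCL4, beside 33.6%, 27.6% and 21.8% of all genes. Tlr4 and Tlr6, counted in CON and HFD, had few hepatocyte-like UMIs, as given above, and reached the UMI limit mostly through the myeloid-like side. The counts of pathway genes are therefore a description. Unc93b1, the chaperone that carries the endosomal receptors to endosomes, was high in classes with Tlr7. It stood at 682, 490 and 415 CPM in plasmacytoid dendritic cell-like cells, 670, 367 and 600 CPM in Kupffer cell-like cells, 191, 139 and 93.7 CPM in B cell-like cells and 13.1, 18.1 and 11.4 CPM in T cell-like cells.

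Over the 39 sums of a class in a library with at least 30 cells, the genes most like each member by Pearson's r of log2(CPM + 1) among 11898 genes were named as a description, since these sums share libraries, depth and free RNA. Tlr13 was most like Klra2 (r = 0.95) and Pla2g7 (0.95), Tlr7 most like Trim25 (0.90) and Pld4 (0.89), and Tlr8 most like Clec4n (0.86) and Adgre1 (0.84). Tlr2 was most like Cd14 (0.88) and Cd300a (0.87), and Cd14 most like Gm34084 (0.89) and Cd300ld (0.89). Tlr3 was most like Wwtr1 and Ctnnd1 (0.82 each), and Tlr1 most like Cd86 (0.79), Ms4a4c (0.76) and the B cell gene Cd22 (0.74). Ly96 was most like Ap2a2 (0.78), which became 0.53 without HFD, and Tlr5 had no close match, its highest being Pgls (0.59). Tlr9, at 11 UMIs in these sums, reached 0.63 with Cyb561a3. Among members, Tlr2 with Tlr13 gave 0.85, Tlr13 with Cd14 0.84 and Tlr3 with Tlr7 −0.32.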

How the data were processed

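For each of the 3 libraries the authors deposited a matrix of raw UMI counts, written by Cell Ranger 7.2.0 without normalization; their text names mm10 and the submitters' processing notes GRCm39, and the files hold no coordinates. The rule that called barcodes cells and the setting for strand are not given in the sources used here. The members and lists were chosen with earlier results of these data known.

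Barcodes needed 500 UMIs, 200 genes and a mitochondrial share of no more than 30% (38, 1 and 0 left out in CON, HFD and CCL4). Scrublet marked 3, 0 and 3 barcodes, under 0.5%, so doublets were in effect not removed, and leaving out the 8% highest scores was an alternative. The 3 libraries were clustered together with scanpy 1.11.5 (2000 variable genes without the members, 30 principal components, 15 neighbours, Leiden resolution 1.0), without batch correction. A cluster was named from 20 marker lists by its raised markers (at least 10% of cells, 1.5-fold) and its 10 leading genes; this rule was revised after the clusters had been seen. UMIs were summed per class and library. Levels, shares and ratios of CPM carry exact 95% intervals, a ratio needs classes of at least 30 cells in both libraries, and a count of 0 allows 3 counts. A bound from a count of 0 leaves out the counting error of the other side. The 2-fold counts needed 20 UMIs and stood in place of a test. All 10 members are described; other genes are those of the pathway list, the markers and leading genes of clusters, and the 3 genes most like a member.

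Class pairs, co-detection, comparisons between clusters, acute-phase genes, motifs and the 5 classes for the 2-fold counts were chosen after values had been seen. Checked on simulated data, 96.8% of 2000 ratio intervals held the true ratio and, for hepatocyte-like cells, of 12701 genes 100% of those made 4-fold lower and 0.4% of the 12501 unchanged ones were called. The lowered genes were drawn from well-counted genes, with Poisson noise alone and the depth of CON in both libraries. Their recovery does not carry over to members near the limit of 20 UMIs, and neither share carries over to the smaller classes. Clustering, filtering, scaling, fold and UMI limits were varied 1 at a time. Positions are from the GENCODE annotation of GRCm38 and promoter sequences from RefSeq on GRCm38.p6.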

Additional observations from a re-analysis of the deposited data

Results flagged for a closer look

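Ly96 moved in opposite directions between libraries in different classes, and whether the classes differ from each other in this was not tested. HFD over CON, it was higher in T cell-like cells (1.65, 95% interval 1.02 to 2.75) and lower in hepatocyte-like cells (0.622, 0.541 to 0.713), classical monocyte-like cells (0.583, 0.37 to 0.926) and neutrophil-like cells (0.429, 0.185 to 0.886). With a mitochondrial limit of 10% the T cell-like ratio was 1.01 (0.687 to 1.51), which leaves no opposite direction in HFD, and the T cell-like cells of CON and HFD lay in different clusters (1063 of 1073 and 2077 of 2082 cells). CCL4 over CON, it was higher in B cell-like cells (1.75, 1.06 to 2.93) and NK cell-like cells (2.95, 1.76 to 4.95) and lower in endothelial cell-like cells (0.547, 0.292 to 0.982). NK cell-like cells of CON lay in clusters of 625 and 527 CON cells, and 514 of 516 of CCL4 in another cluster. B cell-like cells also lay mostly in different clusters, so cluster and library cannot be told apart in either class. The median level of hepatocyte markers in T cell-like cells relative to hepatocyte-like cells moved in the same direction as the lymphocyte values, from 0.252 in CON to 0.718 in HFD and 0.751 in CCL4. Its part in the Ly96 ratios was not tested.

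In cells without a class, Tlr5 reached 14.4 CPM (4.67 to 33.6) in 116 HFD cells of a cluster led by Egfros and predicted genes, above each named class of at least 30 cells in that library. It rests on 5 UMIs. Most cells of the cluster were from CCL4, 663 of them, with 2 UMIs and 1.19 CPM (0.144 to 4.31). The 8 CON cells of the cluster had 0, which allows up to 63.5 CPM, so a difference from CON was not detectable.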

How the results depend on the processing

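No paired analysis was possible because there was 1 library per condition, and no library could be left out of a comparison between libraries. Under 11 other ways of filtering, clustering, scaling or pooling, 1199 of the recomputed ratios between libraries within a class stayed inside the interval of the reported value or kept its bound, 26 moved outside it and 5 turned direction, and for ratios of myeloid-like to hepatocyte-like cells these numbers were 258, 23 and 5. The low Tlr2 and Cd14 of HFD and CCL4 hepatocyte-like cells kept their direction under all of these. Under several alternatives, conventional dendritic cell-like and myeloid progenitor-like cells were named and then counted as myeloid-like. With at least 1000 genes per cell these were 110 and 296 CON cells. Under the main setting neither class was named, so the myeloid-like pool differs between settings. The causes of the moves were not tested. Depth limits Tlr8, Tlr9 and Tlr1, and the small Kupffer cell-like class.

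Myeloid-like over hepatocyte-like cells of CON, Tlr2 (4.59) became 3.91 and Cd14 (28) 23.9 when CPM left out mitochondrial and the 20 most abundant genes, 3.02 and 16.1 with at least 1000 genes per cell, 3.0 and 16.9 without the 8% highest doublet scores, 3.86 and 23.6 at resolution 0.5, 2.52 and 12.8 at resolution 2.0, 3.04 and 16.4 with the members kept for clustering, 3.01 and 16.9 with each library clustered on its own, 3.06 and 18.1 with hepatocyte-like clusters of at least 2% mitochondrial UMIs, and 3.05 and 17.3 with the unnamed progenitor clusters counted as myeloid-like, an alternative chosen after seeing the data. Ly96 of CON (1.38) turned to 0.822 with 1000 genes, 0.749 without the doublet scores, 0.787 with the members kept, 0.828 with own clustering and 0.802 with the progenitor clusters, and became 2.24 with the 2% mitochondrial clusters. In HFD, those clusters gave 52.7 for Tlr2 (134), 0.406 for Tlr5 (1.12) and 32.1 for Tlr13 (119), and a mitochondrial limit of 10% gave 2.79 for Tlr5.

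Between libraries, HFD over CON unless said, Tlr5 in hepatocyte-like cells (2.32) became 0.958 with the 10% limit, 0.866 at resolution 2.0, 1.24 at resolution 0.5 and 1.2 with own clustering. Tlr2 in hepatocyte-like cells (0.028) became 0.0141 at resolution 2.0 and 0.0474 with the 2% mitochondrial clusters, and Cd14 (0.0927) 0.0495 at resolution 2.0. Ly96 there became 0.846 and 0.885 under these settings, and its CCL4 ratio (0.901) 1.2 and 1.1, while the CCL4 ratio of Tlr3 (1.23) became 0.829 at resolution 2.0. In Kupffer cell-like cells, own clustering and resolution 2.0 gave 0.193 and 0.217 for Tlr2 (0.648), 0.204 and 0.221 for Tlr7 (0.705) and 0.13 and 0.15 for Cd14 (0.412), and own clustering gave 0.0945 for Tlr13 (0.343). In classical monocyte-like cells, own clustering gave 1.11 for Tlr2 (0.791), 0.682 for Tlr13 (0.431) and 0.813 for Cd14 (0.516), which was 0.459 without the doublet scores. Cd14 in endothelial cell-like cells (0.499) turned to 3.1 without the doublet scores, and in neutrophil-like cells (0.751) to 1.02 with 1000 genes. The upper bound on Tlr8 in neutrophil-like cells (0.747) became 1.41 with 1000 genes and 1.06 with own clustering, and that on Tlr2 in NK cell-like cells (0.908) 1.09 without the doublet scores, which leaves the direction undetermined. These bounds take the CON level without its interval, so they set no direction under the main setting either. Ly96 became 0.425 in erythroid cell-like cells (1.38) with 1000 genes and 1.01 in T cell-like cells (1.65) with the 10% limit, and Tlr7 in plasmacytoid dendritic cell-like cells 1.8 (0.72) for CCL4 over CON at resolution 0.5.

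Of the counts of members past 2-fold, the 1 higher in HFD hepatocyte-like cells became 0 at 3-fold, with 1000 genes, own clustering, the 10% limit and both resolutions. In classical monocyte-like cells, the 2 lower in HFD became 5 at 1.5-fold and 1 at 3-fold, with at least 50 UMIs and with own clustering, the 0 higher became 1 at 1.5-fold and with the other scaling, and the 2 lower in CCL4 became 0 at 3-fold and 1 with the other scaling, the members kept and resolution 2.0. In neutrophil-like cells, the 1 lower in HFD became 2 at 1.5-fold and 0 at 3-fold, resolution 0.5 and without the doublet scores. In endothelial cell-like cells, the 1 lower in HFD became 3 at 1.5-fold and 0 under each alternative but resolution 2.0 and the 3 that change only hepatocyte-like or myeloid-like cells, and the 2 lower in CCL4 became 4 at 1.5-fold and 0 with at least 50 UMIs and without the doublet scores. In cholangiocyte-like cells, the 0 lower in HFD became 2 at 1.5-fold and the 0 higher in CCL4 became 1 at 1.5-fold, with the other scaling, the 10% limit and resolution 0.5. Shares of cells thinned to 500 UMIs in place of 1000 were lower throughout, for instance 1.39% in place of 2.76% for Tlr2 in CON hepatocyte-like cells.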

Other observations

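Members of the family were also found in unnamed clusters led by progenitor and granule genes. The cluster led by Prtn3 and Flt3, genes of early progenitors, had Tlr2 at 69.3 CPM (60.2 to 79.4) in 399 CON cells, 36.2 CPM (24.4 to 51.6) in 248 HFD cells and 33.2 CPM (18.6 to 54.7) in 160 CCL4 cells, and Cd14 at 159, 65.1 and 46.4 CPM. This cluster also had MHC class II genes among its leading genes and its makeup differed between libraries: at resolution 2.0 conventional dendritic cell-like cells numbered 109, 205 and 147 and myeloid progenitor-like cells 303, 42 and 17. There, progenitor-like cells had Tlr2 at 75.4 CPM (65.1 to 86.9) in CON and 66.3 CPM (36.2 to 111) in HFD, and dendritic cell-like cells at 64.1 CPM (44.4 to 89.6) in CON, 27.6 CPM (16.1 to 44.2) in HFD and 31.9 CPM (17 to 54.6) in CCL4. The cluster led by Camp, Ngp and Ltf, granule genes of immature neutrophils, had Cd14 at 181 CPM (151 to 216) in 147 CON cells and 183 CPM (132 to 247) in 61 HFD cells. Tlr13 was 5.02 CPM in the first cluster of CON and 16.1 CPM in the second, below its level in classical monocyte-like cells of the same library.

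Of the receptors outside the list, Tlr12, which in mice binds profilin of protozoa, had higher levels in Kupffer cell-like and plasmacytoid dendritic cell-like cells than in hepatocyte-like cells. Hepatocyte-like cells were far more numerous, so these levels do not say where most of its UMIs lay. Tlr12 had 66.1, 40.8 and 14.6 CPM in Kupffer cell-like cells and 24.5, 11.6 and 14.7 CPM in plasmacytoid dendritic cell-like cells of CON, HFD and CCL4, and 1, 5 and 1 UMIs in classical monocyte-like cells. Cd180 and its partner Ly86 (MD-1) stood at 132, 63.2 and 46.2 CPM and at 121, 51.4 and 31.5 CPM in B cell-like cells, where the intervals of CON did not overlap those of the other libraries. Most B cell-like cells of each library were in a cluster of their own (940 CON, 738 HFD and 931 CCL4 cells), so cluster and library cannot be told apart.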
